A study of Mus musculus with 6 samples.

Results

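The deoxynucleotide supply genes are the enzymes that make, salvage and break down the deoxynucleoside triphosphates (dNTPs) from which DNA is built. The set was chosen by gene symbol, as every spot of the arrays named Rrm1, Rrm2, Rrm2b, Tyms, Tk1, Dck, Dctd, Dut or Samhd1, and holds 9 genes measured by 16 probes, of 34797 gene names and 55681 probes in all. Their transcripts were measured in spleen of B10.BALB-16.C2A mice, a strain that the series title calls congenic, on 6 one-colour (Cy3) microarrays. The irradiated group had received 900 cGy of X-rays to the whole body from an X-ray irradiator 24 h before the spleens were taken. The other group consisted of resting mice that had received 0 cGy. Each group had 3 arrays, and the RNA on each array was pooled from 3 mice, so that p-values measure the spread between pools and not between mice. No other treatment or allele is given for either group, and the age of the mice is not given in the sources used here. RNA came from whole splenocytes homogenised in TRIzol, so every value is an average over all cell types present.

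Ribonucleotide reductase converts ribonucleotides to deoxyribonucleotides, with a large catalytic subunit, Rrm1, and a small radical-bearing subunit that is either Rrm2, which accumulates in dividing cells in S phase, or Rrm2b, which also serves non-dividing cells and is a known transcriptional target of p53. The deaminase Dctd and the dUTPase Dut deliver dUMP, which thymidylate synthase (Tyms) methylates to dTMP, while the kinases Tk1 and Dck recover deoxynucleosides from outside the cell or from degraded DNA. Samhd1 hydrolyses dNTPs and keeps the pool small in cells that are not replicating, such as macrophages. The mouse spleen holds resting lymphocytes and macrophages beside dividing blood cell precursors, and irradiation at a high dose is known to deplete lymphocytes and dividing precursors.

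Promoters of these genes are shown for both S-phase reductase subunits and Tk1, which fell together, and for Samhd1, which rose. RefSeq's promoter table (GRCm38.p6) held 300 bases around the start, from 250 before to 50 after, for 8 of the 9 genes, in 10 promoters because Dctd has 3. The letters searched, on both strands, were TTTCCCGC, TTTGGCGC, TTTCGCGC and TTTGCCGC for an E2F site, TTCCCGC and TTGGCGC for its shorter core, which lies within the first 2 of these, CCAAT for the CCAAT box, and TTTGAA for the cell cycle homology region. Matches are in capitals in the promoters below, which lie at chr7:102441445-102441744 on the plus strand for Rrm1, chr12:24708004-24708303 on the plus strand for Rrm2, chr11:117825965-117826264 on the minus strand for Tk1 and chr2:157135047-157135346 on the minus strand for Samhd1.
Rrm1: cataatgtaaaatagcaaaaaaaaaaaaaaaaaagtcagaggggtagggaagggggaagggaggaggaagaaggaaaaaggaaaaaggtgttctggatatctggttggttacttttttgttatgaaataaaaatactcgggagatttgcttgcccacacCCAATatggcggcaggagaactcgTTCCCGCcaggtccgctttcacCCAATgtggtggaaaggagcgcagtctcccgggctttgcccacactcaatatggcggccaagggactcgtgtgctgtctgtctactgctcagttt
Rrm2: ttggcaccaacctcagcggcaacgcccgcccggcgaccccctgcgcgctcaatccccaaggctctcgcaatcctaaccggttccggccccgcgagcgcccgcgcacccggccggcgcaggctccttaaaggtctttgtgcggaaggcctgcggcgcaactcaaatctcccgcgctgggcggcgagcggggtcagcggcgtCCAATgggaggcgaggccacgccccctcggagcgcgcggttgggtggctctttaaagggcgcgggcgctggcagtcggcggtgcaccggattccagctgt
Tk1: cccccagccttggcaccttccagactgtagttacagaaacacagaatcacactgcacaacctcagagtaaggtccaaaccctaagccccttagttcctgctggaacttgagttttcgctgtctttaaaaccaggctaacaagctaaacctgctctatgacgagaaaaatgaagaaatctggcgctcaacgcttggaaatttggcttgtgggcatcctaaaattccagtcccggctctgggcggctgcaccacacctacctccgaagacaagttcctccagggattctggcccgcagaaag
Samhd1: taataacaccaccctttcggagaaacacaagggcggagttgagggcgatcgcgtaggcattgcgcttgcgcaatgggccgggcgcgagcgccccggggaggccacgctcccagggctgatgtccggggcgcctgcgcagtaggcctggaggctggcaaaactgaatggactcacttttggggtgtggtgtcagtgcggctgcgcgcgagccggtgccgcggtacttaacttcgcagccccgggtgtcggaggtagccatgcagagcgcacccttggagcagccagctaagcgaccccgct
The Rrm1 promoter held TTCCCGC at -67 from the start and CCAAT at -91 and -45, and the Rrm2 promoter held CCAAT at -50. The windows of Tk1 and Samhd1 held none of these letters. CCAAT was present in 4 of the 10 member promoters and in 37.4% of all 32851 promoters. The 4 belong to 3 genes, since 2 are overlapping Dctd windows that hold the same site. The E2F core was present in 1 of 10 and in 6.81% of all, TTTGAA in 1 of 10 (Dck, on the minus strand at -245) and in 17.9%, and the longer E2F letters in none of the 10 and in 2.26%. These are matches of letters only.

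Several genes were read by more than 1 probe, each a 60-base oligonucleotide, and 3 of those are printed because each gives a second reading of its gene away from the brightest probe. Their positions are given on mm9, as in the files. Whether a probe lies in an exon or an untranslated region was not analysed here.
Samhd1 A_52_P466090: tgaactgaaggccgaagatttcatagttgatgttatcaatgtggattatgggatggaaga
Tk1 A_55_P2056493: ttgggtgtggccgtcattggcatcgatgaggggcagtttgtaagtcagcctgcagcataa
Dctd A_52_P183826: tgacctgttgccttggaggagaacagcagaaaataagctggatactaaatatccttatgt
The Samhd1 probe maps to chr2:156930644-156931997 and the Dctd probe to chr8:49197399-49222612, spans of 1354 and 25214 bases, so the ends of each probe map apart on the genome. The Tk1 probe maps to chr11:117683390-117683449.

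On each array between 39036 and 41267 probes were well above background and none was saturated. Precision is limited by the 3 arrays per group. Of 39683 probes tested, 31.0% were lower and 26.4% higher in the irradiated group (57.5% in either direction; limma, adjusted p under 0.05), with a median log2 change of -0.07. With the arrays scaled to their spike-in controls in place of the 75th percentile, the median of all probes was -0.34 and 29.4% of the called probes were higher in place of 46.0%. All 6 arrays lay on 1 slide and had 1 scan time. Row 1 of the slide held the 3 unirradiated arrays and irradiated replicate 1, and row 2 held the other 2 irradiated arrays. Cdkn1a, a p53 target that stops the cell cycle, was higher by a log2 change of 4.61 ± 0.10 (SE; limma adjusted p = 2.39e-05).

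Most of the genes that supply deoxynucleotides to replicating DNA were lower 24 h after irradiation. Both subunits of the S-phase ribonucleotide reductase, the thymidylate branch (Dctd, Dut, Tyms) and thymidine kinase 1 fell, between 2.52-fold for Tyms and 7.34-fold for Rrm2 by the brightest probe of each gene. The small subunit Rrm2b was 1.43-fold lower, a call that was lost in 7 of 17 alternative settings. Samhd1, which breaks dNTPs down, rose by 1.30-fold, a call that was lost with spike-in scaling, and Dck did not pass the threshold. All 16 probes were well above background on all 6 arrays and were tested. Of these, 11 were lower, against 31.0% of all probes, 2 were higher, against 26.4%, and 3 did not pass. The median log2 change of the 16 probes was -1.56, beside -0.07 for all probes tested, and 9 of them were at least 2-fold lower. The 3 irradiated arrays lay below all 3 unirradiated arrays for 11 probes (35.9% of all probes) and above them for 2 (29.9%). With 1 probe per gene, 7 genes were lower, 1 higher and 1 not past the threshold. In this bulk RNA, fewer cells of a type and less RNA per cell cannot be told apart.

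**Figure D1:**
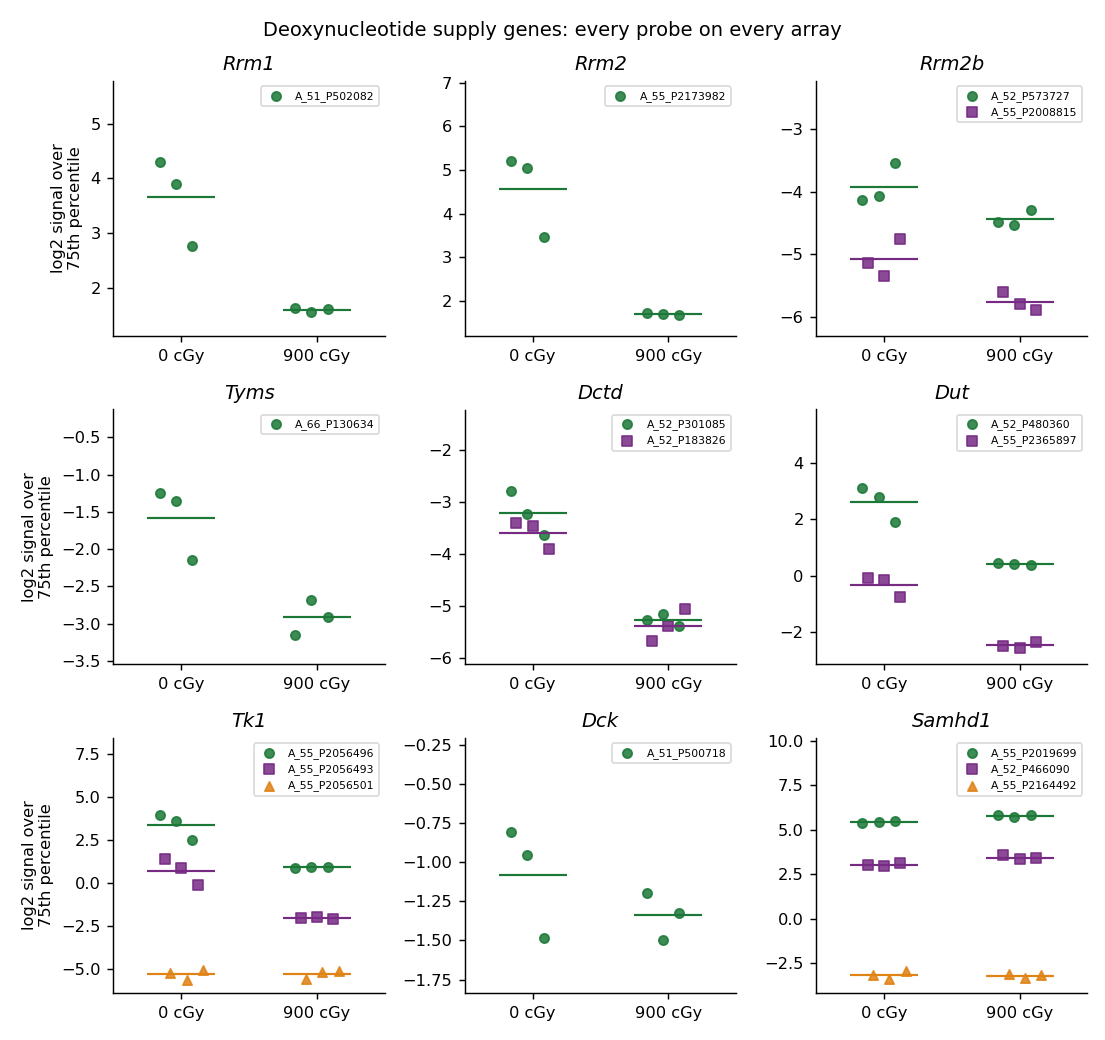
Log2 signal over the array's 75th percentile (vertical axis, arbitrary zero at that percentile) for every probe of the 9 genes on the 3 unirradiated (0 cGy) and 3 irradiated (900 cGy) arrays; points are arrays, short lines group means, and colours and markers the probes of a gene. The irradiated points of Rrm2 lie between 1.68 and 1.72, below unirradiated points from 3.47 to 5.21, whereas those of Dck and of the dimmest Tk1 and Samhd1 probes overlap between groups.

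Rrm2, the S-phase small subunit, was read by probe A_55_P2173982 (NM_009104) at chr12:25398824-25398883 on the plus strand. Its log2 signal over the 75th percentile was 5.21, 5.05 and 3.47 on unirradiated replicates 1 to 3, and 1.72, 1.70 and 1.68 on irradiated replicates 1 to 3. The irradiated arrays were nearly alike and all below the unirradiated arrays, among which replicate 3 was the lowest. The mean went from 4.57 ± 0.96 to 1.70 ± 0.020 (SD, n = 3 pools each), a log2 change of -2.88 ± 0.44 (SE; limma adjusted p = 0.00183). Only 0.746% of all probes tested had a change as low or lower.

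Rrm1, the catalytic subunit, was read by A_51_P502082 (NM_009103) at chr7:109617223-109617283 on the plus strand. It stood at 4.29, 3.90 and 2.77 on the unirradiated arrays and at 1.62, 1.55 and 1.60 on the irradiated arrays. The groups did not overlap, and again unirradiated replicate 3 was nearest to the irradiated arrays. The mean fell from 3.65 ± 0.79 to 1.59 ± 0.036, a log2 change of -2.06 ± 0.37 (limma adjusted p = 0.00336), or 4.18-fold. Among the 4 arrays of slide row 1 alone the change was -2.03 and the limma adjusted p 0.0554. That row holds 1 irradiated array, which is assumed to vary like the unirradiated arrays, here and wherever row 1 is used.

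Rrm2b, the small subunit that non-dividing cells use, was low on the arrays and had 2 probes, both on the minus strand. A_52_P573727 (NM_199476, chr15:37853821-37853880) read -4.14, -4.07 and -3.55 on the unirradiated and -4.48, -4.53 and -4.29 on the irradiated arrays. A_55_P2008815 (chr15:37855630-37855689) read -5.15, -5.36 and -4.75, and then -5.61, -5.79 and -5.89. For both probes the groups did not overlap, and unirradiated replicate 3 was the highest array rather than the lowest. The log2 changes were -0.51 ± 0.17 (limma adjusted p = 0.0416) and -0.68 ± 0.17 (limma adjusted p = 0.0141), or 1.43- and 1.60-fold lower. Both calls depended on the setting. That of A_52_P573727 was lost without unirradiated replicate 2 or without any 1 of the irradiated arrays, with limma adjusted p between 0.0584 and 0.117, and that of A_55_P2008815 without irradiated replicate 3 (limma adjusted p = 0.0508). Without the filter on dim probes, which adds tests, the first also missed the threshold (limma adjusted p = 0.0746). With normexp background correction the changes shrank to -0.28 and -0.17, and the second then missed the threshold (limma adjusted p = 0.0835). With the slide row as a block they were -0.56 and -0.52, at limma adjusted p of 0.141 and 0.138, and within row 1 the same changes had limma adjusted p of 0.192 and 0.205.

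Dctd, which deaminates dCMP to dUMP, had 2 probes for NM_178788. A_52_P301085 (chr8:49226475-49226534) read -2.79, -3.23 and -3.65 on the unirradiated and -5.26, -5.16 and -5.37 on the irradiated arrays. The probe printed above, A_52_P183826, read -3.41, -3.46 and -3.91, and then -5.67, -5.38 and -5.06. Every irradiated array lay more than 1 log2 unit below every unirradiated array by both probes. The log2 changes were -2.04 ± 0.21 (limma adjusted p = 0.000391) and -1.78 ± 0.20 (limma adjusted p = 0.000516), or 4.12- and 3.43-fold lower. With normexp they were -1.02 and -0.79, and both remained past the threshold.

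Dut, which hydrolyses dUTP to dUMP and so keeps uracil out of DNA, had 2 probes that lie apart in the gene. A_52_P480360 (NM_023595, chr2:125083359-125083418) read 3.12, 2.78 and 1.91 on the unirradiated and 0.44, 0.40 and 0.38 on the irradiated arrays. A_55_P2365897 (AK169782, chr2:125076347-125076406) read -0.10, -0.15 and -0.74, and then -2.51, -2.57 and -2.36. Both probes separated the groups by a similar distance. The log2 changes were -2.19 ± 0.29 (limma adjusted p = 0.00102) and -2.15 ± 0.19 (limma adjusted p = 0.000192), or 4.56- and 4.43-fold lower.

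Tyms, which makes dTMP from dUMP, was read by A_66_P130634 (NM_021288) at chr5:30385578-30385637 on the minus strand. Its values were -1.25, -1.36 and -2.14 on the unirradiated and -3.15, -2.68 and -2.91 on the irradiated arrays. The groups did not overlap, and the gap between the lowest unirradiated and the highest irradiated array was narrower than for Rrm2 or Dut. The mean fell from -1.58 ± 0.48 to -2.92 ± 0.24, a log2 change of -1.33 ± 0.26 (limma adjusted p = 0.00464), or 2.52-fold.

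Tk1, the cytosolic thymidine kinase of dividing cells, had 3 probes on the minus strand. A_55_P2056496 (NM_009387, chr11:117676845-117676904) read 3.97, 3.62 and 2.49 on the unirradiated and 0.90, 0.92 and 0.94 on the irradiated arrays. The probe printed above, A_55_P2056493 (ENSMUST00000153298), read 1.38, 0.87 and -0.12, and then -2.03, -1.99 and -2.07. Both showed non-overlapping groups with closely spaced irradiated arrays. Their log2 changes were -2.44 ± 0.36 (limma adjusted p = 0.00153) and -2.74 ± 0.36 (limma adjusted p = 0.000898), or 5.43- and 6.68-fold lower. The third probe, A_55_P2056501 (ENSMUST00000129852, chr11:117685654-117685713), read -5.21, -5.59 and -5.06, and then -5.54, -5.12 and -5.09. Its groups overlapped, and its log2 change was 0.03 ± 0.18 (limma adjusted p = 0.892), so the probes of Tk1 disagreed.

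Dck, which phosphorylates deoxycytidine and the purine deoxynucleosides and is active outside S phase as well, was read by A_51_P500718 (NM_007832) at chr5:89211802-89211861. It stood at -0.81, -0.96 and -1.48 on the unirradiated and at -1.20, -1.50 and -1.33 on the irradiated arrays. The groups overlapped because unirradiated replicate 3 lay among the irradiated arrays. The log2 change was -0.26 ± 0.19 and did not pass the threshold (limma adjusted p = 0.291). Without unirradiated replicate 3 it was -0.46 and passed (limma adjusted p = 0.0219), whereas over the other alternatives the limma adjusted p lay between 0.0591 (spike-in scaling) and 0.805.

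Samhd1, the dNTP triphosphohydrolase, had 3 probes on the minus strand. A_55_P2019699 (NM_001139520, chr2:156923265-156923324) read 5.36, 5.42 and 5.47 on the unirradiated and 5.84, 5.72 and 5.82 on the irradiated arrays. A_52_P466090 (NM_018851), printed above, read 3.02, 2.95 and 3.13, and then 3.56, 3.33 and 3.40. By both probes every irradiated array was above every unirradiated array, with group standard deviations of 0.054 and 0.061 for the first probe and 0.093 and 0.12 for the second. The log2 changes were 0.38 ± 0.08 (limma adjusted p = 0.00839) and 0.40 ± 0.10 (limma adjusted p = 0.0145), or 1.30- and 1.32-fold higher. With spike-in scaling the same changes were 0.11 and 0.13 and did not pass (limma adjusted p = 0.641 and 0.605). Within slide row 1 they were 0.42 and 0.52, at limma adjusted p of 0.124 and 0.0845, and with the row as a block both passed. For A_52_P466090 the call was also lost without unirradiated replicate 2 (limma adjusted p = 0.0532). The third probe, A_55_P2164492 (ENSMUST00000149313, chr2:156945894-156945953), read -3.17, -3.41 and -2.97, and then -3.11, -3.31 and -3.17. Its groups overlapped, with a log2 change of -0.01 ± 0.13 (limma adjusted p = 0.947).

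**Figure D2:**
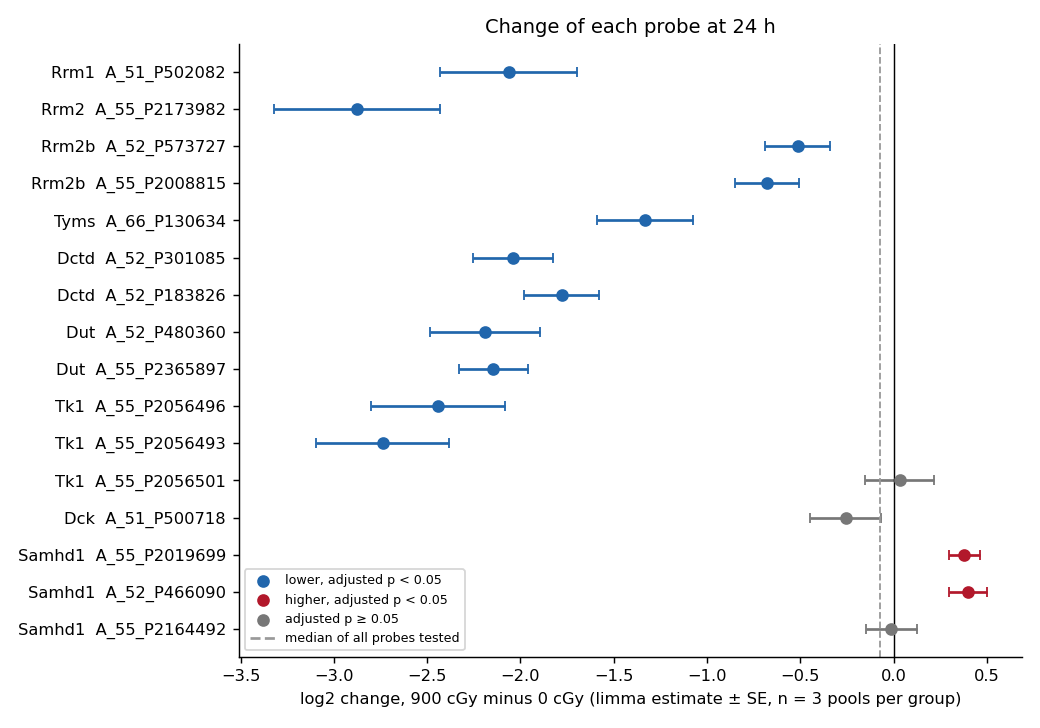
Log2 change from 0 to 900 cGy (horizontal axis) for each of the 16 probes, with the limma standard error as bars, from 3 pools per group; blue probes were lower and red probes higher at an adjusted p under 0.05, grey probes did not pass, and the dashed line is the median of all probes tested (-0.07). Rrm2 lies furthest left at -2.88 and the 2 brighter Samhd1 probes are the only ones right of 0 that passed.

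Within pairs of genes with related roles the changes were set against each other on the same arrays, using the brightest probe of each gene. The change of Rrm2b was 2.36 ± 0.75 log2 units (SE) above that of Rrm2, the other small subunit. The change of Samhd1 was 2.44 ± 0.49 above that of Rrm1, and the change of Dck was 2.18 ± 0.26 above that of Tk1. For each of the 3 pairs the within-array differences of irradiated and unirradiated arrays did not overlap. How many other gene pairs separate in this way was not counted. Of all single probes tested, 35.9% had every irradiated array below the unirradiated arrays and 29.9% had every one above. The exact two-sided permutation test gave p = 0.1 for each pair, also after adjustment over the 3 pairs. That is the smallest p that 3 arrays against 3 allow and does not pass the threshold. Leaving out 1 array at a time moved the differences between 1.94 and 3.10, between 2.09 and 2.91, and between 2.02 and 2.42.

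The unirradiated arrays were not alike. The log2 level on replicate 3 minus the mean of replicates 1 and 2 was -1.66 for Rrm2, -1.33 for Rrm1, -1.31 for the brightest Tk1 probe, -1.04 for that of Dut, -0.83 for Tyms and -0.64 for that of Dctd. Samhd1 differed by 0.08 and the 2 Rrm2b probes by 0.55 and 0.50, in the other direction. The same difference, averaged over the tested genes of a list, was -1.41 for mitosis, -1.02 for S phase and -1.56 for erythroid precursors. It was -0.99 for neutrophils, and 0.37 and 0.39 for B and T cells. Set against replicate 3 alone the log2 change of Rrm2 was -1.77, and against replicates 1 and 2 it was -3.43. The corresponding values were -1.18 and -2.50 for Rrm1. Leaving replicate 3 out thus gave larger falls for the S-phase genes, and a smaller one for Rrm2b (-0.33 and -0.51 for its 2 probes, both still past the threshold).

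Beyond these enzymes, 71 other genes of nucleotide metabolism were followed by their brightest probe, and 70 of them had a probe and were tested. Of the 70, 40 were lower, 11 higher and 19 not past the threshold, and their median change was -0.46 on the log2 scale, beside 31.0% lower, 26.4% higher and a median of -0.07 over all probes tested. In the thymidylate and folate cycle, which supplies the methyl group for dTMP, 9 of 10 were lower and 1 was higher, with a median of -1.12. Mthfd1l and Mthfd1, which carry one-carbon units through folate in mitochondria and cytosol, changed by -2.17 and -1.62. Of 20 genes of purine synthesis and salvage, 12 were lower and 2 higher, with a median of -0.58. Pfas and Impdh2, of de novo purine and guanine nucleotide synthesis, changed by -1.44 and -1.25. Ada, which deaminates adenosine and deoxyadenosine, rose 3.39-fold (log2 change 1.76), and Adss1, an adenylosuccinate synthase, by 0.51.

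Of 15 pyrimidine genes, 8 were lower and 2 higher, with a median of -0.39. Uck2, a uridine-cytidine kinase, and Ctps1, a CTP synthase, changed by -1.01 and -0.77, and the mitochondrial kinase Cmpk2 and the nucleoside diphosphate kinase Nme2 by 0.87 and 0.33. Among 11 tested genes of dNTP hydrolysis and pool cleaning, 6 were lower and 1 higher, with a median of -0.40. Nt5c3, a pyrimidine nucleotidase, changed by -0.93, whereas Upp1, a uridine phosphorylase, rose by 1.41. Among 9 genes of mitochondrial deoxynucleosides and DNA, 3 were lower, 3 higher and 3 not past, with a median of 0.07, near the shares over all probes (31.0% lower, 26.4% higher). The mitochondrial DNA packaging factor Tfam and helicase Twnk changed by -1.10 and -0.98, and the pyrimidine nucleotide carriers Slc25a36 and Slc25a33 by 0.91 and 0.88. Of 5 nucleoside transporters, Slc28a2 and Slc29a2 changed by -1.45 and -0.69, Slc29a3 and Slc29a1 by 0.57 and 0.47, and 1 did not pass. With spike-in scaling 5 of the 70 were higher in place of 11, and Adss1, Cmpk2, Nme2, Slc29a3 and Slc29a1 then missed the threshold. With the slide row as a block the calls of Adss1, Cmpk2, Nme2, Slc29a1 and Nt5c3 were lost. That of Nme2 was also lost with the replicate block, and that of Slc29a1 without the filter on dim probes. The call of Nme2 was lost without any 1 of 5 arrays (all but unirradiated replicate 3), that of Slc29a1 without unirradiated replicate 2 or any 1 irradiated array, that of Cmpk2 without unirradiated replicate 2 or irradiated replicate 1 or 3, and that of Nt5c3 without unirradiated replicate 1 or 2 or any 1 irradiated array.

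**Figure D3:**
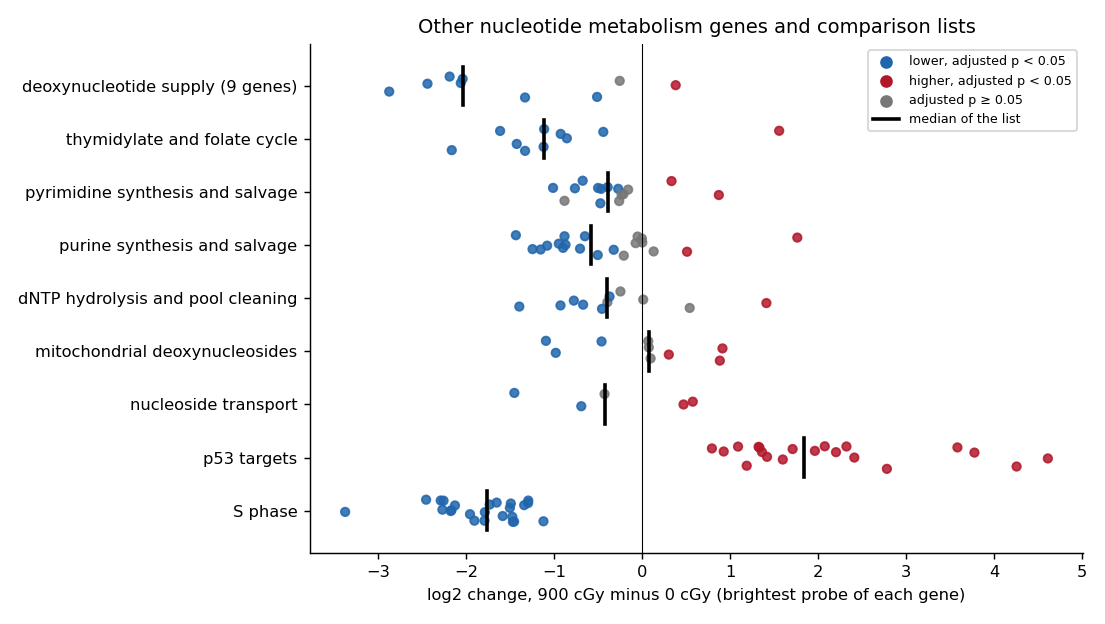
Log2 change from 0 to 900 cGy (horizontal axis) of the 9 deoxynucleotide supply genes, of 6 lists of other nucleotide metabolism genes and of 2 comparison lists, 1 point per gene by its brightest probe, with vertical offsets for legibility only; blue points were lower and red points higher at a limma adjusted p under 0.05, grey points did not pass, and black bars are list medians. The supply genes (median -2.04) lie near the S phase list (-1.76), and the mitochondrial list is centred near 0 (0.07).

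As comparison lists, all 24 tested genes of S phase were lower, against 31.0% of all probes, with a median of -1.76 on the log2 scale. The replication clamp Pcna changed by -1.30 ± 0.24 (limma adjusted p = 0.00385). All 20 tested p53 target genes were higher, against 26.4% of all probes, with a median of 1.83. Both probes of Rrm2b, a p53 target that is not in that list, were lower. The list was chosen with earlier results of these data known. Marker genes of other cell types moved as well. Of 10 tested B-cell markers 10 were lower (median -2.82), and of 10 T-cell markers 9 were lower and 1 higher (median -1.76). All 10 erythroid precursor markers were lower (median -6.75), among which Rhd and Add2 were on no irradiated array well above background, and so were all 11 tested mitosis genes (median -2.82).

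Summed over each list on the linear scale, relative to the array's 75th percentile, erythroid markers went from between 144 and 365 on the unirradiated arrays to between 8.22 and 13.2 on the irradiated arrays. S phase genes went from sums of 378, 319 and 176 on unirradiated replicates 1 to 3 to between 80.1 and 82.1, B-cell markers from between 295 and 382 to between 50.7 and 56.4, and T-cell markers from between 57.3 and 82.9 to between 23.4 and 24.0. All 12 macrophage markers were higher (median 2.01), with sums from between 218 and 236 to between 851 and 899. Of 10 neutrophil markers 3 were lower and 2 higher, near the shares over all probes (31.0% lower, 26.4% higher). Their sums lay between 581 and 1164 on the unirradiated arrays and between 627 and 694 on the irradiated arrays. All 12 markers of exocrine pancreas, an organ beside the spleen, were also higher (median 7.01). Their sums went from 2.58, 121 and 20.8 on unirradiated replicates 1 to 3 to between 1232 and 1665. The unirradiated arrays thus differed widely, and some of these markers were not well above background on every unirradiated array, so the size of this median is uncertain. Markers of dividing and erythroid cells, all B-cell markers and most T-cell markers thus fell with the members that fell. Macrophage and exocrine pancreas markers and the p53 targets rose, as the 2 brighter Samhd1 probes did. The part of these lists in the result was not tested.

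For 3 members the genes whose pattern over the 6 arrays was nearest were found among 14530 named genes, as the root mean square difference of the centred log2 levels. Nearest to Rrm2 were Birc5 (0.054 log2 units), which acts in chromosome segregation, Cpox (0.079), an enzyme of haem synthesis, Wdr62 (0.081), a spindle pole protein, the histone gene Hist2h2bb (0.093) and Il1rl1 (0.096), a cytokine receptor. Nearest to Rrm2b were Arhgef3 (0.042), Serpini1 (0.059), Nfatc1 (0.070), Calhm2 (0.071) and Klra9 (0.072). Among the 5 nearest to Samhd1 were Hdac4 (0.027), Pdcd6ip (0.030) and Pip4k2a (0.030). The likeness is a description over 6 arrays of 2 groups, and the patterns share the same RNA pools.

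**Figure D4:**
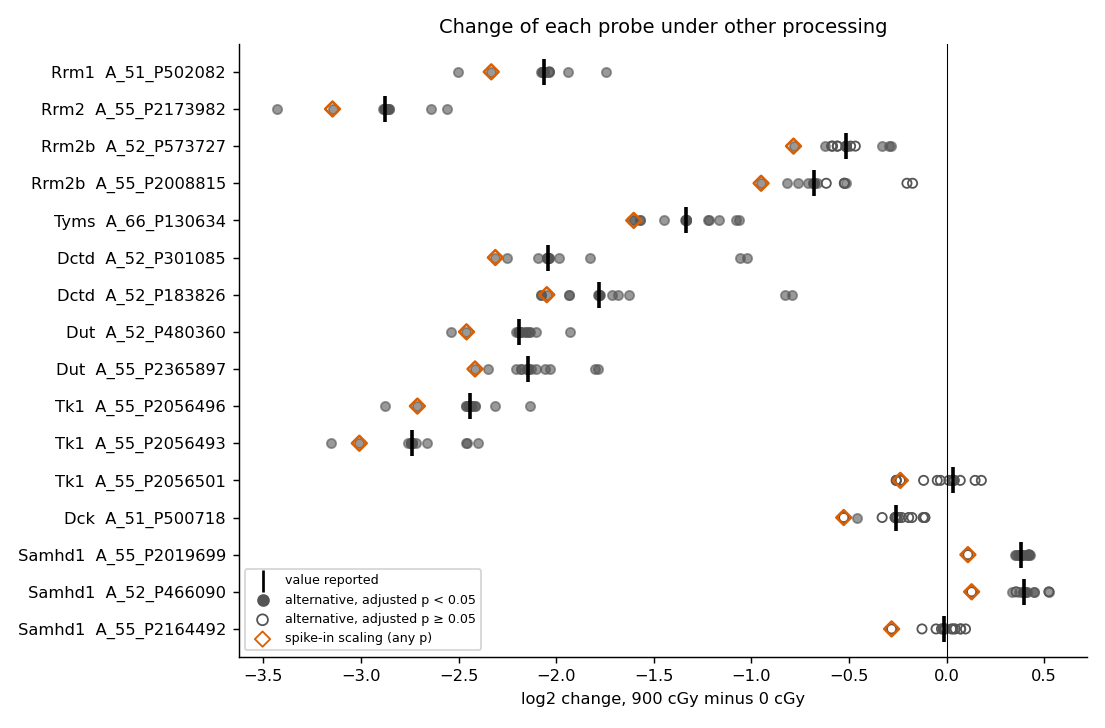
Log2 change from 0 to 900 cGy (horizontal axis) of each probe as reported (black bar) and under 17 alternative settings (circles, filled where the limma adjusted p was under 0.05), with the spike-in scaling as orange diamonds. Of the 13 called probes, 8 are filled throughout, the Rrm2 circles run from -3.43 to -2.56, and the diamonds of the upper 2 Samhd1 rows lie at 0.11 and 0.13.

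Of the 13 called probes, 8 kept their call and direction in every alternative that gave them a value (17 settings for the brightest probe of a gene, 16 for others, since 1 setting used the brightest probe alone), namely those of Rrm2, Tyms, Dctd (both), Dut (both) and Tk1 (both called probes). The log2 change of Rrm2 ranged from -3.43 to -2.56 over these settings, and that of the brightest Tk1 probe from -2.88 to -2.13. Row 2 held no unirradiated array, so the row block takes the change from row 1 alone and the 2 settings give the same value, which rests on irradiated replicate 1. That change was -2.86 for Rrm2, -1.57 for Tyms, -2.16 and -2.18 for the Dut probes and -2.46 for the brightest Tk1 probe.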

How the data were processed

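The authors read Agilent one-colour arrays with Feature Extraction 10.5.1.1, per the submitters' processing notes and the file headers; the deposited intensity values are processed signals, background-subtracted and not normalized between arrays. A value table that the authors deposited holds log2 values, which followed the scanner values (Pearson r from 0.99996 to 0.99998 per array) after scaling to the 75th percentile and centring of each probe. Its column medians were 0.047, -0.0059, -0.046, -0.025, 0.018 and -0.0083, and its scale, centring and direction were inferred from that match. It served as an alternative.

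Here the log2 processed signal of each spot was reduced by the log2 of its array's 75th percentile over 59305 non-control spots; 3671 control spots and 91 to 146 outlier spots per array were left out, and spots of 1 probe averaged. Gene names are those in the files, and list members were matched through older symbols too. A probe was tested if well above background on all 3 arrays of a group. Groups were compared with limma 3.58.1 (lmFit, eBayes, two-sided) in R 4.3.3, adjusted by Benjamini-Hochberg over 39683 probes at a threshold of 0.05; the procedure was tested on simulated data. Alternatives were normexp background correction (offset 50) with and without quantile normalization, median and spike-in scaling (292 spike-in spots), 2 other filters, 1 probe per gene name, the deposited table, replicate and slide row blocks, slide row 1 alone, and leaving out each array.

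The members and all gene lists were chosen with earlier results of these data known. The text names every probe of the 9 members, the 2 largest called increases and decreases in each nucleotide list, Cdkn1a, Pcna and the 5 genes nearest to Rrm2, Rrm2b and Samhd1. A few genes taken by this rule are not reported here. Rhd and Add2 were named after their values were seen.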

Additional observations from a re-analysis of the deposited data

How the results depend on the processing

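Arrays of the same replicate number correlated in their deviations from the group means by 0.0757, 0.115 and 0.00543. Because these correlations were low, the numbers were not taken as pairs. Of 6 arrays, 4 correlated best with their own number, a count that was not compared with chance. No called probe of the 9 genes changed direction in any of the 17 alternatives, and with the replicate block the calls of all 16 probes were kept (11 lower, 2 higher), the 3 pair differences being 2.36, 2.44 and 2.18; over all probes the block gave 11297 lower and 9935 higher, and among the 70 other nucleotide genes 37 and 10. With spike-in scaling 0 member probes, 6702 of all probes and 5 other nucleotide genes were higher. By construction, 1 probe per gene name left 7 member probes lower and 1 higher. With the slide row as a block 6 other nucleotide genes were higher. Slide row 1 alone, with fewer arrays, gave 0 member probes higher, 5968 probes lower and 6043 higher, and 17 other nucleotide genes lower and 5 higher. Leaving out 1 array at a time gave 9 to 12 member probes lower and 1 to 2 higher (1 without unirradiated replicate 2), 10107 to 13006 probes lower and 8932 to 10808 higher, and 33 to 45 other nucleotide genes lower and 7 to 12 higher (7 without unirradiated replicate 2, irradiated replicate 1 or irradiated replicate 3). The uncalled Tk1 probe A_55_P2056501 ranged up to 0.18 without 1 array and turned negative with spike-in scaling (-0.24), the row block and row 1 alone (-0.26 each), and without unirradiated replicate 2 (-0.12) or irradiated replicate 2 (-0.03) or 3 (-0.05). The uncalled Samhd1 probe A_55_P2164492 ranged down to -0.13 without 1 array and turned positive with normexp (0.034), normexp and quantile (0.025), the row block and row 1 alone (0.072 each), and without unirradiated replicate 3 (0.10) or irradiated replicate 2 (0.04). Where no construction is named, the cause was not tested. The changes of the dim Rrm2b and Dctd probes were smaller with normexp, which also adds an offset of 50 to every signal.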
